A study of Homo sapiens with 21 samples.

Results

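NRF2 and its antioxidant targets were followed through mammospheres of BT-549, an established triple-negative breast cancer (TNBC) cell line, by the counts of 10 genes among the 42339 listed. They are the transcription factor gene NFE2L2 (NRF2), its inhibitor KEAP1 and 8 target genes, NQO1, OSGIN1, HMOX1, SLC7A11, GCLC, GCLM, TXNRD1 and SRXN1. They were picked by symbol as NRF2 pathway genes and not by a threshold on their counts, though with earlier results of these data known, and each had 1 row of raw counts in every library. The study asks what MUC1-C, the transmembrane subunit of mucin 1, and MYC do in cancer stem cells. For this, cells were also grown without attachment as mammospheres, called 3D cells. Polyadenylated RNA was sequenced from 21 cultures, 3 in each of 7 groups. The groups were 2D cells (untreated, grown as a monolayer in RPMI1640 with fetal bovine serum and insulin) and 3D cells (untreated mammospheres at serial passage 6, in serum-free MammoCult medium on ultra-low attachment plates). Further 3D cells at passage 6 received 0.75 μM GO-203, a peptide inhibitor directed at the MUC1-C cytoplasmic domain. A tet-MUC1shRNA line (passage 6) and a tet-MYCshRNA line (passage 8 as labelled, while the study names an earlier passage for an immunoblot of this line) were grown as 3D cells with 0.1% DMSO as vehicle or with 500 ng/ml doxycycline (DOX), which switches on the shRNA. All cells are labelled wild type in genotype and come from BT-549, and each silencing line carries 1 shRNA sequence. DOX without an shRNA against MUC1 or MYC was not among the groups used here. Medium and growth format changed together between 2D and 3D cells and cannot be told apart, nor can shRNA target and passage number between the 2 lines.

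NRF2 is held low in resting cells by KEAP1, an adaptor that presents it to a CUL3 ubiquitin ligase for degradation. Oxidants and electrophiles modify cysteines of KEAP1, NRF2 then accumulates, pairs with small MAF proteins and binds antioxidant response elements near its targets. Those targets make and use glutathione and thioredoxin, detoxify quinones and handle heme and iron. NRF2 is regulated mostly at the protein level, and the counts below measure mRNA only.

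The mapped positions are those of GRCh38. NFE2L2 (ENSG00000116044.16) lies on the minus strand of chromosome 2 from 177218667 to 177392756, and KEAP1 (ENSG00000079999.14) on that of chromosome 19 from 10486125 to 10503558. NQO1 (ENSG00000181019.13; chromosome 16, 69706996 to 69726668, minus strand) encodes a quinone reductase, and OSGIN1 (ENSG00000140961.14; chromosome 16, 83931311 to 83966332, plus strand) an oxidative stress-induced growth inhibitor. HMOX1 (ENSG00000100292.18; chromosome 22, 35380361 to 35394214, plus strand) encodes heme oxygenase 1. SLC7A11 (ENSG00000151012.13; chromosome 4, 138164097 to 138242349, minus strand) encodes the cystine-importing subunit of system xc-, and is a target of ATF4 as well as of NRF2. GCLC (ENSG00000001084.13; chromosome 6, 53497341 to 53616970, minus strand) and GCLM (ENSG00000023909.10; chromosome 1, 93885199 to 93909456, minus strand) encode the catalytic and modifier subunits of glutamate-cysteine ligase, the first step of glutathione synthesis. TXNRD1 (ENSG00000198431.16; chromosome 12, 104215779 to 104350307, plus strand) encodes cytosolic thioredoxin reductase. SRXN1 (ENSG00000271303.2; chromosome 20, 646615 to 653200, minus strand) encodes sulfiredoxin, which repairs overoxidized peroxiredoxins.

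For 8 of the 10 genes the RefSeq promoter table (GRCh38.p14) holds the stretch from 250 bases before to 50 bases after a start site. HMOX1 and SLC7A11 have no entry in it. The core of the antioxidant response element, TGACNNNGC, was searched on both strands, where N is any base. These genes have 11 promoters in the table, of which 4 hold the core, 1 of KEAP1, 1 of GCLM and both of TXNRD1. Among all 35116 promoters of the table, 4687 hold it, or 13.3%. A match is a description of the letters, not a bound site. The 6 matches are shown with 10 bases on either side, read 5′ to 3′ along the gene's own strand. They are places where NRF2 could be looked for at KEAP1, GCLM and TXNRD1 only. Bases outside that stretch were not searched for any gene. Capitals mark the core, which reads as its reverse complement where it lies on the other strand, and position 1 is the first transcribed base.
KEAP1, positions -54 to -46 (chr19:10502817-10502825): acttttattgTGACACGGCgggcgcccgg
KEAP1, positions -31 to -23 (chr19:10502794-10502802): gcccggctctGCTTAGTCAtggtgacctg
GCLM, positions -34 to -26 (chr1:93909456-93909464): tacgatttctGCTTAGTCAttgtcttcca
TXNRD1, positions -99 to -91 (chr12:104215680-104215688): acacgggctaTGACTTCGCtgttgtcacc
TXNRD1, positions -8 to 1 (chr12:104215771-104215779): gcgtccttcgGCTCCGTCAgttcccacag
TXNRD1, second start site, positions -102 to -94 (chr12:104286930-104286938): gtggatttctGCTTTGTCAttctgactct
The core of GCLM and one of those of KEAP1 have the same 9 letters.

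Libraries held 38026597 to 99751717 counts, so the spread between cultures rather than counting limits most values. In the tet-MUC1shRNA line MUC1 was at 101, 83.2 and 86.6 CPM (the library's counts scaled to a common depth, with TMM factors over the 21 libraries) with vehicle and at 19.7, 21.2 and 23.3 with DOX. In the tet-MYCshRNA line MYC was at 439, 418 and 386 CPM with vehicle and at 244, 279 and 297 with DOX, a 1.54-fold decrease (log2 fold change -0.62, adjusted p = 9.05e-05, edgeR's quasi-likelihood test). MUC1 mRNA in that line was 2.39-fold higher with DOX (adjusted p = 5.06e-06, same test). The share of counts from mitochondrial DNA moved with the groups, from 2.31-2.72% in 3D cells to 5.22-5.24% in 2D cells and 3.34-4.40% with GO-203. It was 2.60-2.78% and 6.36-6.72% in the tet-MUC1shRNA line with vehicle and DOX, and 3.37-4.08% and 3.96-5.07% in the tet-MYCshRNA line. Its part in the changes below was not tested. Of 11 markers of the line and of other cells, the mesenchymal VIM (1095 to 2464 CPM over the group means) and CD44 (608 to 1581) were abundant. Although the tissue of origin is labelled epithelial breast, the epithelial KRT8, KRT18, EPCAM and CDH1 had group means of at most 1.34, 0.887, 0.0415 and 1.42 CPM, the hormone receptors PGR and ESR1 at most 0.0376 and 0.967, and the leukocyte marker PTPRC at most 1.25. ERBB2 had group means of 19.999 to 35.8 CPM and was 1.77-fold higher on MYC silencing (adjusted p = 8.03e-04, edgeR), where ESR1 was 2.74-fold higher (adjusted p = 0.0242). The endothelial marker PECAM1 went from 0.0114 CPM in 2D to 6.77 CPM in 3D cells, and KRT8 from 0.0419 to 1.34 CPM on MUC1 silencing. Of these markers 3 were higher and 4 lower of 7 tested in 3D vs. 2D cells, 4 and 2 of 8 on MUC1 silencing, 0 and 0 of 6 under GO-203, and 4 and 1 of 5 on MYC silencing, in edgeR's test at an adjusted p below 0.1. Their part in the changes below was not tested either. Replicate 1 of the DOX-treated tet-MYCshRNA cultures stood apart from its 2 replicates. Per degree of freedom, the chi-square of its counts against theirs was 36.3 and 52.8, and 4.36 to 21.04 in the other 19 replicate pairs. Calls and signs that change without it are named where they occur.

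Across the 7 groups the genes differed in how far their group means ranged. Thioredoxin reductase TXNRD1 ranged 1.47-fold between its highest and lowest group mean, KEAP1 1.40-fold, GCLM 1.70-fold, NFE2L2 1.92-fold and GCLC 1.99-fold. The 3 genes with the response element core shown above had the 3 smallest ranges of the 8 genes with a promoter in the table, which is a description only. HMOX1 and SLC7A11 were not searched. For the other genes, only 250 bases before to 50 bases after a start site were searched. HMOX1 ranged 3.75-fold, NQO1 5.40-fold, OSGIN1 7.06-fold and SLC7A11 7.73-fold. DOX-treated tet-MYCshRNA cells had the highest mean of NQO1, OSGIN1, HMOX1, GCLC, GCLM and KEAP1, though the libraries of the next group overlapped with theirs for GCLM and KEAP1. Per kilobase of exon, which allows genes to be compared, NQO1 was the most abundant at 57.4 to 310.0 CPM per kb over the group means. TXNRD1 had 34.6 to 50.9 CPM per kb and HMOX1 20.9 to 78.2, above TXNRD1 in DOX-treated tet-MYCshRNA cells only. KEAP1 had 11.9 to 16.8 CPM per kb and GCLM 13.0 to 22.1, while SLC7A11 spanned 2.59 to 19.99. NFE2L2 had 4.95 to 9.51, GCLC 3.69 to 7.33 and OSGIN1 only 0.181 to 1.28 CPM per kb. NFE2L2 levels per kb rest on 14975 annotated exon bases, of which 13.6% are shared with a gene on its strand and 24.8% with genes on the other.

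The order of the groups differed from gene to gene. For NFE2L2, GO-203, tet-MUC1shRNA vehicle and tet-MYCshRNA DOX cultures came first with overlapping libraries, then 2D, 3D and tet-MYCshRNA vehicle cells, each below the one before it. KEAP1 had 5 groups in which each overlapped its neighbour, and stood lower in tet-MUC1shRNA vehicle and then GO-203 cells. NQO1 gave 3 tiers, with tet-MYCshRNA DOX cells on top, 2D cells at the bottom and the other 5 groups overlapping their neighbours between 252 and 355 CPM.

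HMOX1 was likewise highest on MYC silencing, followed by both groups of the tet-MUC1shRNA line, which overlapped. Its tet-MYCshRNA vehicle, 2D and GO-203 libraries overlapped in turn, and untreated 3D cells came last. OSGIN1 ran from tet-MYCshRNA DOX to tet-MUC1shRNA vehicle cells, then to 3D, tet-MYCshRNA vehicle and tet-MUC1shRNA DOX cells, which overlapped, and last to GO-203 and 2D cells. SLC7A11 stood apart in 2D cells, and the DOX groups of both lines came next and overlapped. GO-203, tet-MUC1shRNA vehicle, 3D and tet-MYCshRNA vehicle cells then followed without overlap between neighbours.

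GCLC was highest with DOX, in the tet-MYCshRNA line and then in the tet-MUC1shRNA line, and its other groups lay within 31.1 to 43.3 CPM. GCLM was highest in both groups of the tet-MYCshRNA line, which overlapped, then in 2D cells, and the remaining 4 groups overlapped their neighbours. TXNRD1 was highest in both groups of the tet-MUC1shRNA line, which overlapped, then in 2D cells, and lowest in the remaining 4, which overlapped in turn. For GCLM and TXNRD1, DOX and vehicle libraries of a line overlapped while those of the 2 lines did not, and passage and shRNA changed together between the lines.

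SRXN1 could not be read at this locus. It had 0 to 20 counts per library and 183 over the 21 libraries together, and 90.7% of its exon bases also belong to a readthrough gene on the same strand, which itself had 0 to 15 counts. Reads that fit both genes may not have been assigned to either, and the counting option was not stated. SRXN1 was too low to be tested in 3D vs. 2D cells and under GO-203. On MUC1 silencing its log2 fold change was -0.56 (95% confidence interval -1.68 to 0.56) and on MYC silencing 0.21 (-1.02 to 1.44). Neither passed the test, and both intervals leave room for changes in either direction. SRXN1 is left out of the statements on targets below.

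**Figure D1:**
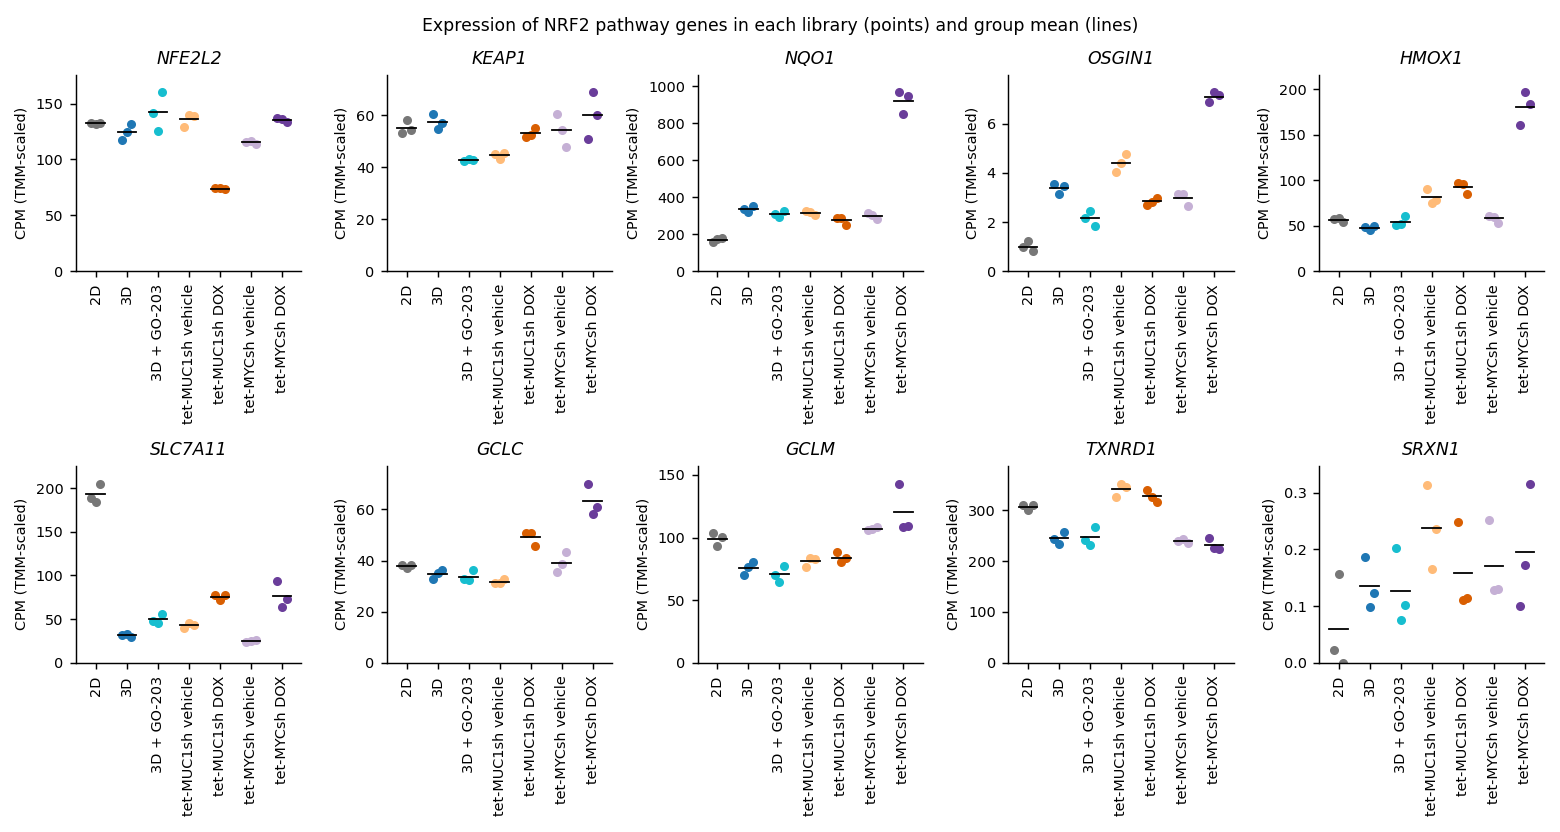
CPM of each of the 10 genes (vertical axes, linear from 0) in the 21 libraries (points) by group (horizontal axis), with the group mean as a line. NFE2L2 is lowest, at 73.5 to 74.5 CPM, in DOX-treated tet-MUC1shRNA cells, NQO1, OSGIN1 and HMOX1 are highest in DOX-treated tet-MYCshRNA cells, and SLC7A11 is highest in 2D cells.

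In 3D vs. 2D cells neither NFE2L2 nor KEAP1 passed the test, while the targets changed in both directions. NQO1 and OSGIN1 were upregulated in 3D cells, and SLC7A11, GCLM, TXNRD1, HMOX1 and GCLC were downregulated. That is 2 genes higher and 5 lower of the 9 tested, at an adjusted p below 0.1 in edgeR's quasi-likelihood test. Of all 19190 genes tested, 32.0% were higher and 31.7% lower, so the counts alone do not set these genes apart. The median log2 fold change of the 9 was -0.13, against -0.01 for all genes.

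NFE2L2 was at 133, 132 and 133 CPM in 2D cells and at 118, 124 and 131 in 3D cells. Its 3D libraries were all below the 2D ones, but the log2 fold change of -0.09 (95% confidence interval -0.22 to 0.03) did not pass the test. It was called lower with library size alone (-0.15, adjusted p = 0.0287, edgeR) and under a minimum of 10 counts in each library (-0.12, adjusted p = 0.0852). KEAP1 was at 55.2 ± 2.71 CPM in 2D and 57.3 ± 2.85 CPM in 3D cells (SD, n = 3 each), with overlapping libraries and a log2 fold change of 0.05 (-0.09 to 0.18). 

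NQO1 was counted at 158, 174 and 179 CPM in 2D cells and at 336, 320.1 and 355 in 3D cells. The groups were far apart, and the 1.97-fold increase had an adjusted p of 6.61e-10 (log2 fold change 0.98, standard error 0.06, edgeR). OSGIN1 went from 0.976, 1.22 and 0.821 CPM to 3.53, 3.12 and 3.49. Although low, it rose 3.35-fold (log2 fold change 1.74, standard error 0.21, adjusted p = 1.96e-06, edgeR).

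The largest change among the targets was in the cystine transporter. SLC7A11 was at 189, 184 and 205 CPM in 2D cells and at 31.6, 32.3 and 30.0 in 3D cells, a 6.18-fold decrease (log2 fold change -2.63, standard error 0.07, adjusted p = 5.93e-15, edgeR). SLC7A11 and OSGIN1 also passed an absolute log2 fold change of 1.5, as did 16.2% of all genes tested. The modifier subunit GCLM was 1.32-fold lower in 3D cells (99.0 ± 5.42 to 75.3 ± 5.29 CPM, SD, n = 3 each, adjusted p = 7.43e-05, edgeR). TXNRD1 was 1.26-fold lower (307 ± 4.93 to 245 ± 11.8 CPM, SD, n = 3 each, adjusted p = 5.74e-05), and HMOX1 1.18-fold lower (adjusted p = 0.00313, same test). The catalytic subunit GCLC, with a log2 fold change of -0.13 and an adjusted p of 0.0982 in edgeR's test, was at the threshold. Its call was lost without any one of the 6 libraries, where the log2 fold change ranged from -0.15 to -0.06, and under DESeq2 (adjusted p = 0.148). RLE factors, no low-count filter, all 21 libraries in one fit, a replicate block and an adjusted p below 0.05 lost it too.

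**Figure D2:**
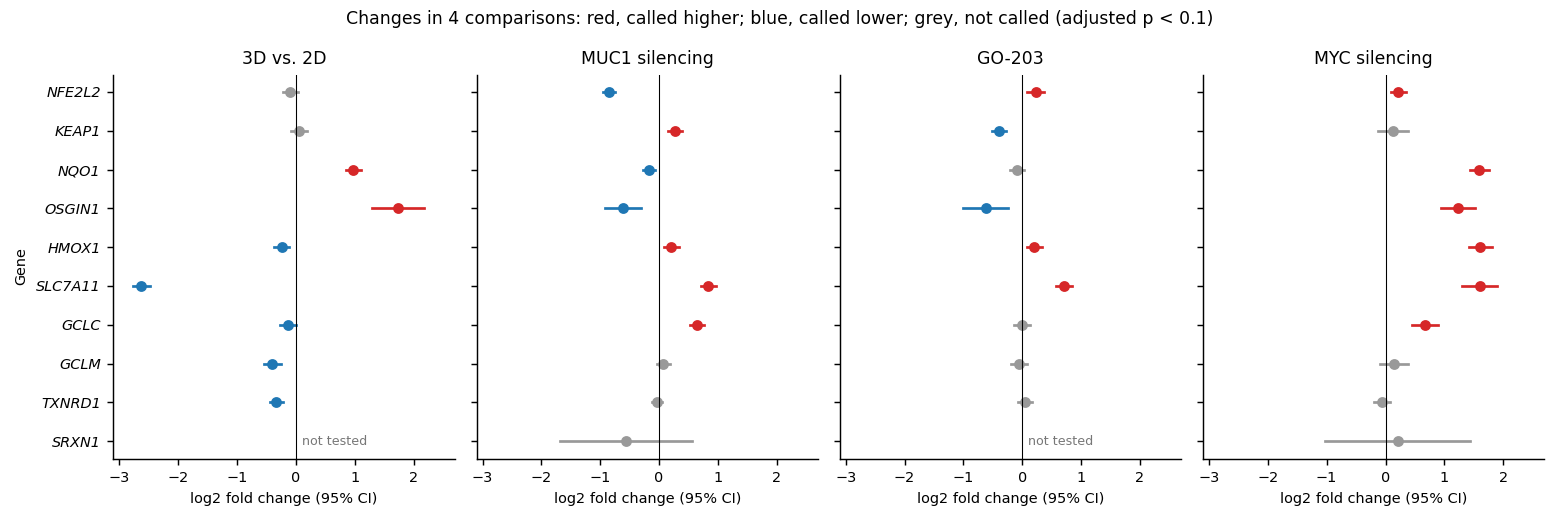
Log2 fold change (horizontal axes) of each gene in the 4 comparisons, with 95% confidence intervals as bars; red points were higher and blue points lower at an adjusted p below 0.1 in edgeR's test, grey points did not pass. SLC7A11 lies at -2.63 in 3D vs. 2D cells and right of 0 in the other comparisons, and NQO1, HMOX1, SLC7A11 and OSGIN1 lie between 1.23 and 1.61 on MYC silencing.

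Silencing MUC1 lowered NFE2L2 itself. NFE2L2 was at 129, 140.0 and 138 CPM with vehicle and at 74.2, 74.5 and 73.5 with DOX, a 1.81-fold decrease (log2 fold change -0.85, standard error 0.05, adjusted p = 2.16e-12, edgeR). Those DOX-treated libraries were the lowest of all 21 and differed from each other by about 1 CPM. KEAP1 moved the other way, from 45.2, 43.3 and 45.5 CPM to 51.6, 52.6 and 55.1, a 1.21-fold increase (adjusted p = 2.12e-04, edgeR). In all, 3 of the 10 genes were downregulated and 4 upregulated, against 31.6% and 30.7% of the 19220 genes tested.

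The targets did not follow NFE2L2 as a group. OSGIN1 fell from 4.05, 4.40 and 4.78 CPM to 2.71, 2.81 and 3.00, or 1.53-fold (adjusted p = 0.00105, edgeR). NQO1 decreased only 1.12-fold, from 316 ± 11.4 to 277 ± 21.8 CPM (SD, n = 3 each, adjusted p = 0.00559, edgeR). SLC7A11, in contrast, rose from 40.3, 45.7 and 43.0 CPM to 77.9, 71.9 and 77.5, a 1.79-fold increase (adjusted p = 9.41e-11, edgeR). The catalytic subunit GCLC rose from 31.1, 31.4 and 32.8 CPM to 51.0, 50.7 and 45.6, or 1.57-fold (adjusted p = 4.25e-09, edgeR). HMOX1 was 1.16-fold higher with overlapping libraries (81.5 ± 8.36 to 92.7 ± 6.88 CPM, SD, n = 3 each, adjusted p = 0.00696, edgeR). GCLM and TXNRD1 did not pass, with log2 fold changes of 0.07 (95% confidence interval -0.04 to 0.18) and -0.04 (-0.13 to 0.05). None of the 10 genes passed the log2 fold change of 1.5, which 8.82% of all genes did.

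Scaling mattered here. With library size alone in place of TMM factors, all genes together moved up by 0.17 in the median, and 64.4% of the genes called were higher against 49.3% with TMM factors. NQO1 then had a log2 fold change of -0.0032 and did not pass (adjusted p = 0.956), although relative to that shift it was at -0.17. GCLM at 0.24 and TXNRD1 at 0.13 were then called higher, so that 6 genes were higher and 2 lower, but relative to the shift they were at 0.07 and -0.04. GCLM was also called under a minimum of 10 counts in each library (0.12, adjusted p = 0.0515, edgeR). NFE2L2 was at -0.69 under that scaling, or -0.85 relative to the shift, and remained called.

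Under GO-203 both regulators changed in the direction opposite to that on MUC1 silencing. KEAP1 was at 60.4, 54.8 and 56.9 CPM in 3D cells and at 42.3, 43.2 and 42.6 with GO-203, a 1.31-fold decrease (adjusted p = 3.69e-05, edgeR). NFE2L2 was at 142, 126 and 159.9 CPM with GO-203, which overlapped the 3D libraries given above, and was 1.17-fold higher (log2 fold change 0.22, standard error 0.07, adjusted p = 0.0237, edgeR). Of the 9 genes tested, 3 were upregulated and 2 downregulated, where 11.1% and 12.9% of 18488 genes were. The same 3D libraries serve here as controls and above as the 3D group.

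SLC7A11 was again higher, at 47.8, 45.9 and 56.2 CPM with GO-203 against 31.6, 32.3 and 30.0 without, a 1.63-fold increase (adjusted p = 8.93e-08, edgeR). OSGIN1 decreased 1.54-fold, from 3.38 ± 0.223 to 2.16 ± 0.313 CPM (SD, n = 3 each, adjusted p = 0.0194, edgeR), and HMOX1 increased 1.15-fold (adjusted p = 0.0275). NQO1, GCLC, GCLM and TXNRD1 had log2 fold changes between -0.09 and 0.04 and did not pass. None of the 9 passed a log2 fold change of 1.5, nor did most genes (0.757% of all tested). Without replicate 3 of the GO-203 group, NFE2L2 (adjusted p = 0.196), HMOX1 (0.224) and OSGIN1 (0.105) lost their calls in edgeR's test, leaving 1 gene higher and 1 lower. The call of NFE2L2 was also lost without 3D replicate 1 (adjusted p = 0.129) and that of HMOX1 without 3D replicate 2 (0.122) and with all 21 libraries in one fit (0.201). KEAP1 and SLC7A11 kept theirs in each of these fits.

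The difference between the 2 ways of targeting MUC1-C was tested as an interaction over 12 libraries that share none. The arms also differ in cell line and in control. That was 0.1% DMSO in the tet-MUC1shRNA line and 3D cells without a labelled vehicle for GO-203. Line, control and way of targeting cannot be told apart here. The difference was significant for 3 genes. The effect of silencing on NFE2L2 was lower than that of GO-203 by 1.07 on the log2 scale (95% confidence interval of the difference -1.25 to -0.90, adjusted p = 1.25e-10, edgeR). It was higher on KEAP1, with a difference of 0.67 (adjusted p = 1.46e-07), and on GCLC, with a difference of 0.66 (adjusted p = 6.99e-07). Over all 20829 genes, 20.8% had a higher and 24.1% a lower value under silencing. For SLC7A11 the difference was 0.13 (95% confidence interval -0.06 to 0.33) and for OSGIN1 0.01 (-0.44 to 0.47), which did not pass. That of SLC7A11 was called without GO-203 replicate 3 (0.21, adjusted p = 0.0819, edgeR), which gave 3 genes higher, and with library size alone (0.29, adjusted p = 0.0174), and that of GCLM with library size alone (0.29) and with at least 10 counts in every library (0.18). The share of higher among called differences was 46.4% with TMM factors and 61.6% with library size alone, which moved the median of all genes by 0.15.

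Silencing MYC raised 5 of the targets, NQO1, HMOX1, SLC7A11, OSGIN1 and GCLC. NQO1 was at 317, 305 and 281 CPM with vehicle and at 967, 850.1 and 945 with DOX. All 3 DOX-treated libraries exceeded every other library in the series, and the 3.02-fold increase had an adjusted p of 6.68e-08 (log2 fold change 1.59, standard error 0.07, edgeR). HMOX1 went from 61.2, 59.9 and 53.6 CPM to 161, 197 and 184, a 3.05-fold increase (log2 fold change 1.61, standard error 0.09, adjusted p = 2.01e-07, edgeR). SLC7A11 rose from 23.3, 25.1 and 26.4 CPM to 94.1, 63.4 and 72.9, or 3.04-fold (log2 fold change 1.60, standard error 0.13, adjusted p = 3.85e-06, edgeR). Its DOX-treated libraries varied most, yet the lowest was far above the highest with vehicle. OSGIN1 went from 3.14, 3.14 and 2.66 CPM to 6.86, 7.27 and 7.16, a 2.34-fold increase (adjusted p = 2.03e-05, edgeR).

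Within glutamate-cysteine ligase the increase was seen in the catalytic subunit. GCLC was at 35.6, 38.7 and 43.3 CPM with vehicle and at 70.1, 58.4 and 61.0 with DOX, 1.59-fold higher (adjusted p = 2.29e-04, edgeR). GCLM was at 106, 107 and 109 CPM with vehicle and at 143, 108 and 109 with DOX. Replicate 1 stood well above the vehicle libraries and the other DOX libraries lay close to them, and the log2 fold change of 0.14 (95% confidence interval -0.09 to 0.37) did not pass. Without that replicate it was -0.0042. TXNRD1 was at 239 ± 3.94 and 232 ± 12.3 CPM (SD, n = 3 each) and did not pass (log2 fold change -0.06, 95% confidence interval -0.20 to 0.07), but was called lower without replicate 1 (-0.11, adjusted p = 0.0659, edgeR). 

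NFE2L2 and KEAP1 changed little on MYC silencing. NFE2L2 went from 116, 117 and 114 CPM to 137, 136 and 134, a 1.16-fold increase with no overlap (adjusted p = 0.00869, edgeR). KEAP1 varied more within groups, at 54.2 ± 6.30 and 59.95 ± 8.86 CPM (SD, n = 3 each), and its log2 fold change of 0.12 (-0.13 to 0.38) did not pass. It was called higher without replicate 1 of the DOX group (0.22, adjusted p = 0.0636, edgeR). Over the list, 6 of the 10 genes were upregulated and 0 downregulated. Of all 19951 genes, 30.3% were higher and 28.1% lower, 11390 had an unadjusted p below 0.05, and DESeq2 also called 0 of the 10 genes lower. NQO1, HMOX1 and SLC7A11 passed the log2 fold change of 1.5 that 10.5% of genes passed. Leaving out each library, NQO1 and HMOX1 stayed above 1.5. SLC7A11 ranged from 1.43 to 1.72 and so did not pass it in every such fit. The median log2 fold change of the 10 was 0.44, against 0.01 for all genes, and the 6 calls remained without replicate 1.

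The effects of MUC1 and MYC silencing were compared as an interaction over the 12 libraries of both lines. For 5 genes the effect of MUC1 silencing was lower than that of MYC silencing, and for 0 it was higher, where 26.9% and 26.0% of 21585 genes were. Of all genes, 11318 had an unadjusted p below 0.05, and DESeq2 also found 0 of the 10 genes higher. OSGIN1 differed most, by -1.86 on the log2 scale (95% confidence interval -2.23 to -1.48, adjusted p = 1.19e-07, edgeR). NQO1 differed by -1.78 (-1.98 to -1.58, adjusted p = 5.14e-11), HMOX1 by -1.41 (-1.67 to -1.15, adjusted p = 2.99e-08) and NFE2L2 by -1.08 (-1.23 to -0.93, adjusted p = 7.47e-10) in the same test. SLC7A11, higher on both, rose less on MUC1 silencing, with a difference of -0.78 (-1.09 to -0.46, adjusted p = 2.85e-04, edgeR). GCLC rose by 0.65 and 0.67, and the difference of -0.03 had an interval of -0.27 to 0.22. For GCLM, TXNRD1 and KEAP1 the intervals were -0.34 to 0.17, -0.14 to 0.17 and -0.16 to 0.42. Without replicate 1 of the tet-MYCshRNA DOX group the differences of GCLC and GCLM changed sign, to 0.045 and 0.051, and did not pass either. Library size alone moved the median of all genes by 0.20 and the share of higher among called differences from 49.1% to 61.2%. TXNRD1 and KEAP1 then passed, at 0.22 and 0.34, or 0.01 and 0.14 relative to that shift. The lines differ in passage number, and MUC1 and MYC mRNA each went opposite ways in them. MYC was 1.19-fold higher on MUC1 silencing (245 ± 8.54 to 286 ± 11.6 CPM, SD, n = 3 each, adjusted p = 5.01e-05, edgeR).

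**Figure D3:**
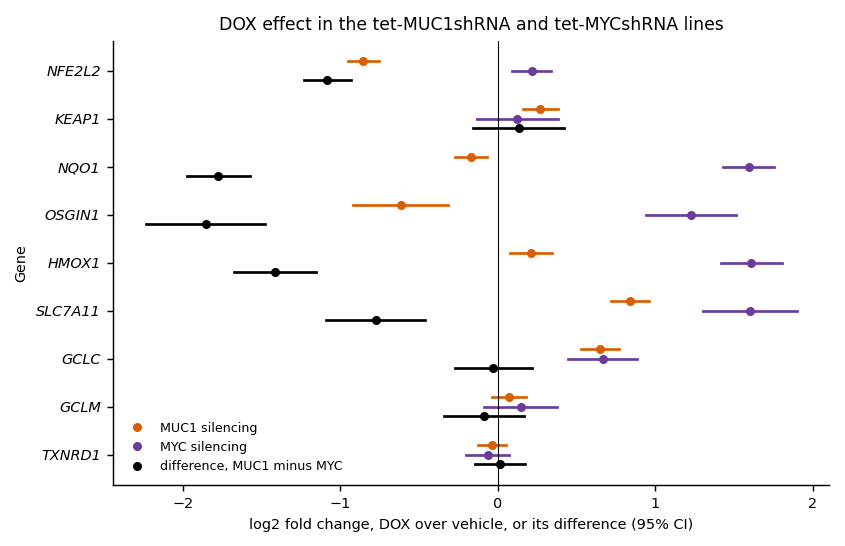
Log2 fold change of DOX over vehicle (horizontal axis) in the tet-MUC1shRNA line (orange) and the tet-MYCshRNA line (purple) and the difference of the 2 (black), with 95% confidence intervals, for the 9 genes other than SRXN1. The black intervals of NFE2L2, NQO1, OSGIN1, HMOX1 and SLC7A11 lie left of 0, and those of KEAP1, GCLC, GCLM and TXNRD1 include it.

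Over the 4 comparisons SLC7A11, HMOX1 and OSGIN1 were called in all 4, NFE2L2, NQO1 and GCLC in 3, KEAP1 in 2 and GCLM and TXNRD1 in 1. OSGIN1 had the direction of NQO1 wherever both were called, while SLC7A11 went against NQO1 on MUC1 silencing and in 3D vs. 2D cells. Across the 7 group means of log2 CPM, Pearson's r was 0.90 between NQO1 and OSGIN1, 0.84 between HMOX1 and GCLC and 0.78 between NQO1 and HMOX1. At the other end it was -0.54 between NQO1 and TXNRD1 and -0.46 between SLC7A11 and OSGIN1. NFE2L2 had values from -0.38 with TXNRD1 to 0.20 with NQO1 over its 7 readable targets. These values describe 7 points that share libraries and scaling.

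A pair of ratios, added after seeing the data, sets partners side by side within each library, where scaling drops out. NFE2L2 over KEAP1 was 3.04 ± 0.185 with vehicle and 1.40 ± 0.0544 with DOX in the tet-MUC1shRNA line (SD, n = 3 each). In 3D cells it was 2.18 ± 0.199 and with GO-203 3.34 ± 0.418 (SD, n = 3 each), the opposite direction. Neither pair of groups overlapped, and the exact two-sided permutation test gave p = 0.1 for both (n = 3 per group), the smallest it can give with 3 against 3. The 2 groups of the tet-MYCshRNA line overlapped at 2.14 ± 0.230 and 2.30 ± 0.357, as did 2D and 3D cells at 2.40 ± 0.129 and 2.18 ± 0.199 (SD, n = 3 each). GCLC over GCLM was 0.392 ± 0.0168 and 0.586 ± 0.0441 in the tet-MUC1shRNA line and 0.366 ± 0.0309 and 0.529 ± 0.0358 in the tet-MYCshRNA line, with vehicle and DOX (SD, n = 3 each). Neither pair overlapped (exact permutation p = 0.1 for both, n = 3 per group, two-sided). It was 0.382 ± 0.0143 in 2D and 0.461 ± 0.00861 in 3D cells, also without overlap, and 0.478 ± 0.0207 with GO-203, which overlapped 3D cells (SD, n = 3 each). These are 8 tests, and 5 of them reached 0.1, so none could pass 0.05.

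**Figure D4:**
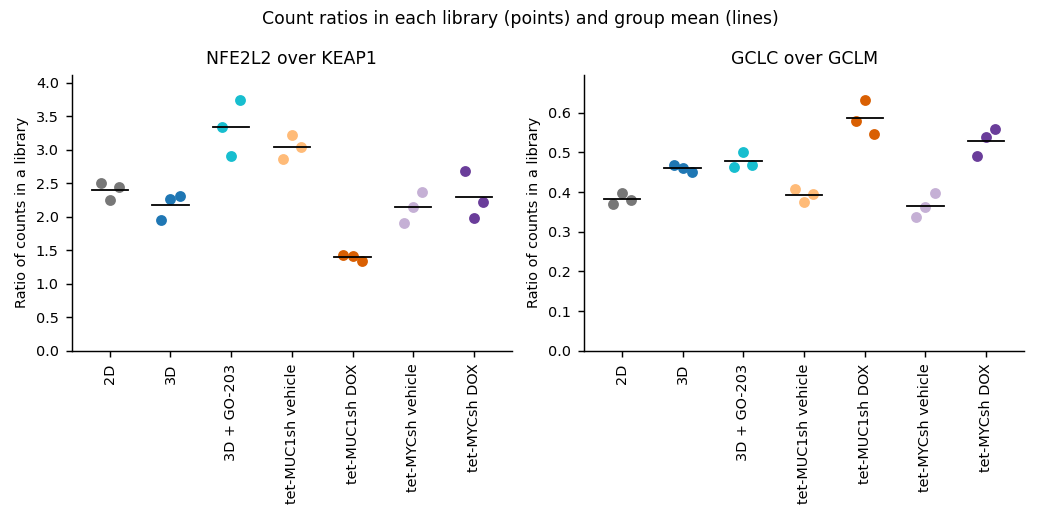
Ratio of the counts of NFE2L2 to KEAP1 (left) and GCLC to GCLM (right) in each library (points) by group, with the group mean as a line and vertical axes from 0. The left ratio is lowest, at a mean of 1.40, in DOX-treated tet-MUC1shRNA cells, and the right ratio is higher with DOX than with vehicle in both lines.

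The other genes around NRF2 were read as 4 lists. These were partners and regulators (12 genes), further targets (30), other antioxidant enzymes and related genes (29) and ATF4 with 11 of its targets. The last was read because ATF4 shares SLC7A11 with NRF2. The counts below stand against the shares of all genes given above, 32.0% higher and 31.7% lower in 3D vs. 2D cells, then 30.7% and 31.6% for MUC1 silencing, 11.1% and 12.9% under GO-203, and 30.3% and 28.1% on MYC silencing. The medians stand against -0.01, 0.02, 0.02 and 0.01 over all genes. Of the 12 partners and regulators, 5 were higher and 4 lower in 3D vs. 2D cells, near those shares. They included BACH1, a repressor that competes with NRF2 for its elements, with a log2 fold change of 1.86, the small MAF protein genes MAFF with 3.87 and MAFG with 0.71. On MUC1 silencing 4 were higher and 5 lower, again near them, and these included BACH1 at -0.85, the NRF2 relative NFE2L1 at -0.99 and MAFG at 0.54. Under GO-203 BACH2 at 1.33 and BACH1 at -0.53 were the only ones called of 12. On MYC silencing 5 were higher and 2 lower. The lower ones were CUL3, of the ubiquitin ligase described above, at -0.33 and RBX1 at -0.22, both named after their values were seen. SQSTM1, whose protein p62 binds KEAP1, rose from 213 ± 14.7 to 689 ± 100.0 CPM (SD, n = 3 each, log2 fold change 1.67), MAFG was at 0.51 and the ubiquitin ligase adaptor BTRC at 0.42. BACH2, below the level for naming and picked after its values were seen, had the largest change of the list there, from 1.56 to 9.59 CPM (log2 fold change 2.62). 

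Of the further NRF2 targets tested, 13 of 29 were higher and 6 lower on MYC silencing, with a median log2 fold change of 0.05. EPHX1, a microsomal epoxide hydrolase, rose from 22.1 ± 0.707 to 239 ± 17.5 CPM (SD, n = 3 each, log2 fold change 3.42), and the efflux pump ABCC3 had a log2 fold change of 1.82, but ABCC4 one of -1.65. On MUC1 silencing 7 were higher and 18 lower of 29 (median -0.22), though the genes with the largest changes rose, ABCC3 by 1.71, ABCC2 by 1.16 and the heme transporter SLC48A1 by 1.03 on the log2 scale. Under GO-203 4 were higher and 6 lower of 29 (median -0.06), with AKR1C3 at -0.93, EPHX1 at 0.73 and ABCC1 at -0.34. In 3D vs. 2D cells 16 were higher and 6 lower of 28 (median 0.22). The aldo-keto reductases, whose near-identical sequences make the split between them uncertain, had few or no counts in 2D cells. AKR1C1 had 2 to 18 counts per 2D library and 69.6 ± 3.80 CPM in 3D cells (SD, n = 3), and AKR1C3 had 0 to 8 counts and 30.1 ± 1.62 CPM. AKR1C2 had 0 counts in the 2D libraries and 42.6 ± 1.73 CPM in 3D cells (SD, n = 3), at least 752-fold higher against a floor of 3 counts per library. With AKR1C2 at that bound the list's median was again 0.22.

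Of the other antioxidant enzymes and related genes tested, 16 of 27 were higher and 6 lower in 3D vs. 2D cells (median 0.31). TXNIP, CHAC1 and CHAC2 among the higher and SLC3A2 among the lower are related genes rather than antioxidant enzymes. Glutaredoxin GLRX had a log2 fold change of 5.47, TXNIP, an inhibitor of thioredoxin, 5.27, and the peroxidase GPX8 -2.88. On MUC1 silencing 6 were higher and 14 lower of 27 (median -0.12), with GLRX at -2.20, TXNIP at -1.38 and catalase CAT at -1.18. Under GO-203 6 were higher and 6 lower of 27 (median -0.07), with GPX1 at -0.48, SESN1 at 0.47 and GLRX at -0.33. On MYC silencing 11 were higher and 7 lower of 27 (median 0.15), with the mitochondrial peroxiredoxin PRDX3 at -1.03, SLC3A2, the partner chain of the SLC7A11 transporter, at 0.91, and PRDX5 at 0.78. PRDX3 changed less elsewhere, by 0.30 in 3D vs. 2D cells and by -0.20 both on MUC1 silencing and under GO-203, each past the threshold.

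Most of the ATF4 list was lower on MUC1 silencing, where SLC7A11 rose. Of 12 tested, 10 were lower and 1 higher, against 31.6% and 30.7% of all genes (median -1.12, against 0.02 for all genes). ATF4 itself was among the lower ones, from 250.2 to 146 CPM (log2 fold change -0.75), while CEBPB was higher (0.53) and SLC7A5 did not pass (-0.03). These 3 genes are named after their values were seen. Lower too were VLDLR (2.84-fold), TRIB3 (log2 fold change -1.45) and PHGDH (-1.42). On MYC silencing 5 were higher and 4 lower (median 0.05), including VLDLR at -0.65, CEBPB at 0.64 and PSAT1 at -0.55. In 3D vs. 2D cells, where SLC7A11 was lower, 6 were higher and 4 lower (median 0.35), with PHGDH at -2.16, ATF3 at 1.42 and SESN2 at 1.37. GO-203 changed 2 of them, VLDLR at -0.51 and ATF3 at 0.43, and the median was -0.06. CHAC1 and SESN2 stand in this list and in that of antioxidant enzymes and related genes.

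**Figure D5:**
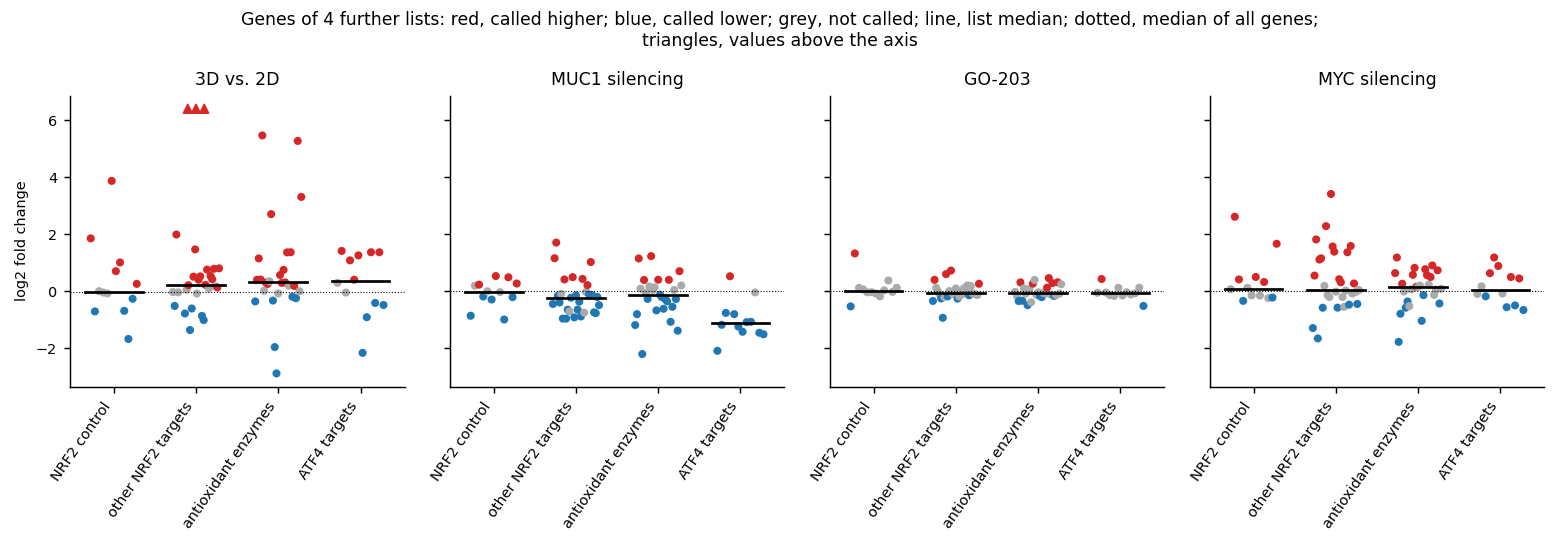
Log2 fold change (vertical axis) of each tested gene of 4 lists in the 4 comparisons; red points were higher and blue lower at an adjusted p below 0.1 in edgeR's test, grey did not pass, bars give list medians and dotted lines the median of all genes. Triangles mark AKR1C1, AKR1C2 and AKR1C3, which lie above the axis in 3D vs. 2D cells, and the ATF4 targets have a median of -1.12 on MUC1 silencing. The list labelled antioxidant enzymes also holds related genes.

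Other genes tracked the 9 readable ones closely over the 7 group means, as is common with 7 points and 7348 genes. The most similar to NFE2L2 were BLOC1S6 and RECK (Pearson's r 0.98 for both), and to KEAP1 CSTPP1 (0.93) and ARHGAP35 (0.90). NQO1 was most like VRK3 and ZNF317 (both 0.99), HMOX1 like SEPTIN8 (0.99) and GPR137 (0.98), and OSGIN1 like LCOR and HAS2 (both 0.98). For SLC7A11 FTX was among them (0.98), and they were for GCLC MAN1A1 (0.98) and CTNNB1 (0.97), for GCLM SH3KBP1 (0.98) and ZNF318 (0.97), and for TXNRD1 IRF2 (0.99) and UVSSA (0.97).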

How the data were processed

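The authors deposited a table of raw counts by gene. Per the study's methods, the stranded reads were paired, mapped with STAR (genome GRCh38) and assigned to genes by featureCounts. The strand setting, annotation release and treatment of reads fitting several genes are not given in the sources used here. Symbols were matched to 42252 of 42339 genes, and positions and exon lengths come from GENCODE release 44. The name table used gives SOD2 an identifier that matched no row; it is not analysed here, which says nothing of its expression. Empty cells (4952 to 7587 genes per block of libraries, none of them a member) were read as 0.

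The test was edgeR 4.0.16's quasi-likelihood test (R 4.3.3), fitted to the 6 libraries of a comparison after filterByExpr, with TMM scaling and Benjamini-Hochberg adjustment over all genes tested. Calls are at an adjusted p below 0.1. Differences between comparisons were tested as interactions over 12 libraries. CPM values were scaled over all 21 libraries. Alternatives were DESeq2 1.42.0, RLE factors, library size alone, no low-count filter, at least 10 counts in every library, 1 fit of all 21 libraries, the replicate number as a block, an adjusted p below 0.05, and leaving out each library. The steps were tested on simulated data.

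The members and gene lists were chosen with earlier results of these data known. Named beside the members, for each list and comparison, are up to 3 called genes with the largest changes, a mean of at least 10 CPM and groups that do not overlap, and for each member the 2 genes of highest correlation; those of SRXN1 are left out because of its low counts, and 1 further gene is not reported here. The labels number replicate cultures without saying how they were kept apart. The p-values therefore judge a difference against the spread between these cultures, and do not cover other cell lines or shRNA sequences. Fewer cells of a type and less RNA per cell cannot be told apart in such samples.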

Additional observations from a re-analysis of the deposited data

Results flagged for a closer look

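Between the tet-MUC1shRNA and tet-MYCshRNA lines, the effect of DOX differed by a test of the difference for 5 of the 10 genes. Of all 21585 genes tested, 26.0% had a higher and 26.9% a lower value, which together is near the 5 of 10 here. The log2 differences, MUC1 minus MYC silencing, were -1.08 for NFE2L2, -1.78 for NQO1, -1.41 for HMOX1, -0.78 for SLC7A11 and -1.86 for OSGIN1, all at an adjusted p below 0.1 in the interaction test of edgeR. Passage number differs between the lines too. No group has more than 3 libraries, so no single library's value of a gene was tested against its group.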

How the results depend on the processing

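Of 927 values of single members under the alternatives, 856 kept their direction and side of the threshold, 19 lost and 12 gained a call, and 40 changed sign, all of them values that had not passed with TMM factors and all libraries. With library size alone the signs turned for KEAP1 in 3D vs. 2D cells (-0.011), TXNRD1 on MUC1 silencing (0.13), GCLC (0.17) and GCLM (0.12) in MUC1 minus MYC silencing, and NQO1 (0.082) and TXNRD1 (0.081) in MUC1 silencing minus GO-203. At least 10 counts in every library gave 0.013 for TXNRD1 on MUC1 silencing and 0.042 for GCLC in MUC1 minus MYC silencing, which was 0.034 with no low-count filter, and TXNRD1 there was -0.016 with all 21 libraries in one fit. Leaving out each library, log2 values ranged for GO-203 from -0.054 to 0.014 (GCLC) and -0.0089 to 0.073 (TXNRD1), for MYC silencing from -0.0042 to 0.21 (GCLM) and -0.32 to 0.58 (SRXN1), for MUC1 minus MYC silencing from -0.11 to 0.045 (GCLC), -0.16 to 0.051 (GCLM) and -0.025 to 0.052 (TXNRD1), and for MUC1 silencing minus GO-203 from -0.050 to 0.10 (HMOX1) and -0.11 to 0.13 (OSGIN1). Counts of members called moved with library size alone to 2 higher in MUC1 minus MYC silencing (main 0) and 4 higher in MUC1 silencing minus GO-203 (main 2), and with 1 library left out to 1 to 3 higher and 1 to 2 lower under GO-203, 0 to 1 lower on MYC silencing and 2 to 3 higher in MUC1 silencing minus GO-203. The cause was not tested. Same-numbered cultures shared only a number (correlations of deviations -0.16 to 0.07 in 3D vs. 2D, -0.05 to 0.09 on MUC1 silencing, 0.04 to 0.17 under GO-203, -0.34 to 0.01 on MYC silencing); with the replicate number as a block the counts were 2 and 4, 4 and 3, 3 and 2, and 6 and 0 higher and lower in 3D vs. 2D cells, on MUC1 silencing, under GO-203 and on MYC silencing, and 0 and 5, and 2 and 1, in the 2 differences. Among the members, SRXN1 had the fewest counts, at 0 to 20 per library.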
